A study of Mus musculus with 6 samples.

Results

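The respiratory chain genes are the nuclear genes for subunits of the 5 complexes with which the inner mitochondrial membrane turns food-derived electrons into ATP. They were followed by RNA-seq in J1 cells, an established wild-type mouse embryonic stem (ES) cell line, while the cells were moved from serum medium to 2i+vitC. Members were taken by name alone: every gene whose symbol starts with Ndufa, Ndufb, Ndufc, Ndufs or Ndufv and a digit, with Uqcr, with Cox and a digit from 4 to 8 or with Atp5, together with Sdha, Sdhb, Sdhc and Sdhd. This gave 79 of the 12626 genes measured. Of these, 34 encode subunits of complex I, 4 of complex II, 8 of complex III, 14 of complex IV (Ndufa4 included) and 15 of complex V. The other 4 carry such a name without being a standard subunit: Atp5s and Atp5sl, Cox7a2l and Ndufa4l2. The subunits that mitochondrial DNA itself encodes were not analysed here.

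Each group had 2 libraries. D0 cells were in 15% serum with 1000 U/mL leukemia inhibitory factor (LIF). D6 and D13 cells had spent 6 and 13 days without serum in a medium with the same LIF, 3 μM of the Gsk3 inhibitor CT-99021, 1 μM of the MEK inhibitor PD0325901 and 100 μg/mL vitamin C. All were feeder-free, wild-type J1 cells on gelatin. The study calls the libraries biological replicates, but the labels do not say which cultures they came from, so p-values measure the spread between these libraries. From D0 to the later days, serum, the Gsk3 and MEK inhibitors, vitamin C, the base medium and time all changed together. Their parts cannot be told apart. D6 and D13 cells had the same medium and differed in the days spent in it.

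In the respiratory chain, complex I (NADH dehydrogenase) and complex II (succinate dehydrogenase) hand electrons to ubiquinone. Complex III passes them to cytochrome c, and complex IV (cytochrome c oxidase) passes them to oxygen. Complexes I, III and IV pump protons, and complex V (ATP synthase) uses their return to make ATP. ES cells in serum are known for strong glycolysis, and their use of respiration differs between culture states. Several small subunits of complex IV exist as a common form and a form known from particular tissues: Cox7a1 from heart and skeletal muscle, Cox6b2 and Cox7b2 from testis.

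The upstream sequences of these 3 tissue forms and of their common partners are shown because the tissue forms had the largest rises from D0 of all members and because the study concerned the loss of CpG methylation. Each line gives the 250 bases before the transcription start in the RefSeq table, 5′ to 3′ on the gene's strand, with every CpG in capitals (build GRCm38.p6).
Cox7b2 (chr5:71548206-71548455, minus strand): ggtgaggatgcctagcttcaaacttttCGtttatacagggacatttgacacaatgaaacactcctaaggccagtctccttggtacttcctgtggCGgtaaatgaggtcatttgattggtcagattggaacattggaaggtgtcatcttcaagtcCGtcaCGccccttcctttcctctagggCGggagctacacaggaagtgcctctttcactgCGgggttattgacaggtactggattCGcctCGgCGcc
Cox6b2 (chr7:4753095-4753344, minus strand): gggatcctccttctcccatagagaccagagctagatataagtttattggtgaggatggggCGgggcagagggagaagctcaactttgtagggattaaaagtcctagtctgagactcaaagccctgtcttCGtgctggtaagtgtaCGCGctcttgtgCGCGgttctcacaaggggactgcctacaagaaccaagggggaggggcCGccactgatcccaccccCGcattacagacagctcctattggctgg
Cox7a1 (chr7:30183921-30184170, plus strand): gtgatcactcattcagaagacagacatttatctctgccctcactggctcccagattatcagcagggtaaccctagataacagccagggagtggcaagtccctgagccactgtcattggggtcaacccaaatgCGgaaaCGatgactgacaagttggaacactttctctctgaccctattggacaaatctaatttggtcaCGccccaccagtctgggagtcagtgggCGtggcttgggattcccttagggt
Cox7b (chrX:106015450-106015699, plus strand): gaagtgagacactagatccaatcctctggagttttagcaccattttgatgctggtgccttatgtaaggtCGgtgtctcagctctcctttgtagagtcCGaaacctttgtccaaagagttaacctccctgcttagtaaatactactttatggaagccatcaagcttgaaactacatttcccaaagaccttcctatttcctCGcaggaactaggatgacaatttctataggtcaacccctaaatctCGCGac
Cox6b1 (chr7:30626115-30626364, minus strand): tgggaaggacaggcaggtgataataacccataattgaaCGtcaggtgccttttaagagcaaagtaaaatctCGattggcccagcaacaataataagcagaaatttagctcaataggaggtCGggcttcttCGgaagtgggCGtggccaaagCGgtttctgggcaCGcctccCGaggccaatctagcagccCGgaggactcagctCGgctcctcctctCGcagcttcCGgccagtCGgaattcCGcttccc
Cox7a2 (chr9:79759854-79760103, minus strand): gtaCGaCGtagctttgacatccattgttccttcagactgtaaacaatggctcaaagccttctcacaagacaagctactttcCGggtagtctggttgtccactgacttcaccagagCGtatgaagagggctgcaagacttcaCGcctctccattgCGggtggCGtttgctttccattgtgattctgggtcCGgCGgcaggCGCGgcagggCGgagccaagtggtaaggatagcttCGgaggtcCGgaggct

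Over the full window of 300 bases, which adds the first 50 transcribed bases, Cox7b2 and Cox6b2 each held 10 CpGs and Cox7a1 held 7. Their partners Cox6b1 and Cox7a2 held 17 and 20. Cox7b, the common partner of Cox7b2, held 5, so fewer CpGs did not mark the tissue form in every pair. In all, 64 of the 79 members matched a RefSeq window, with 69 windows between them. These held 19 CpGs in the median, against 20 for the windows of genes measured in these libraries and 7 for every window in the table.

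Short motifs in the same windows were searched on both strands. The letters GCGCATGCG, a core of sites for the factor NRF1, were in 11.6% of the members' windows, in 3.78% of those of all measured genes and in 1.75% of all windows. AAGATGGCG, which contains a core for YY1, was in 10.1%, 2.96% and 1.4%. CCGGAAGT, an ETS-type core, was in 7.25%, 8.02% and 3.89%, and TATAAA was in 10.1%, 6.69% and 13.6%. The NRF1 letters were in the windows of Atp5g2, Atp5k, Atp5l, Cox6a1, Ndufa11, Ndufa8, Uqcr11 and Uqcrc1, and positions within a window were not recorded. The windows of Cox6b2 and Cox7a1 held none of the 4 motifs, and that of Cox7b2 held TATAAA. In the 250 bases of Cox7b2 shown above, it occurs only as its reverse complement, tttata. It lies there near the end far from the transcription start.

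The libraries held between 73230745 and 83688345 reads on genes. The values are log2 CPM, counts scaled to the size of the library and put on a log2 scale, and every value returned a whole number of reads within 0.001 of a read. Of the members, 7 had fewer than 1000 reads in some library, the lowest being 40 reads for Ndufa4l2 and the highest 237443. All 7 markers fixed for ES cells were measured, with a summed level of 2933 to 4184 CPM in every library. Of 8 fibroblast markers, 4 were measured, at a summed 33.1 and 13.5 CPM at D0 and 7.84 to 10.6 CPM later, while Col3a1, S100a4, Lum and Dcn have no row. The 3 measured markers of primitive endoderm summed to 17.8 and 20.4 CPM at D0 and to 3.48 to 5.42 CPM later. Of 6 markers of ectoderm and mesoderm, 3 were measured, and these summed to 149 and 97.4 CPM at D0 and to 50.8 to 84.8 CPM later, while Pax6, T and Mixl1 have no row. The fibroblast, primitive endoderm, and ectoderm and mesoderm sums were higher at D0 than on the later days. Single markers did not all follow their sums. From D0 to D13 at an adjusted p under 0.05, 1 ectoderm and mesoderm marker rose and 0 fell. Of the ES cell markers, 1 rose and 2 fell. Of the fibroblast markers 0 rose and 2 fell, and of the primitive endoderm markers 0 rose and 1 fell. The part of these markers in the results was not tested.

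The libraries also differed by transcript length, which touches every result on these genes. The members' transcripts are short, with a median of 758 bases against 2911 bases over 11479 genes with a length, and 51 of the 79 are no longer than 1000 bases. Among the other genes, the 697 of up to 1000 bases had a median log2 fold change of 0.61 from D0 to D13, whereas the 5527 of over 3000 bases had one of −0.26. The same shift separated replicates: these short genes stood higher in the first library by 0.25 at D0, 0.05 at D6 and 0.62 at D13. The members did likewise, by 0.28, 0.06 and 0.59, and 78 of the 79 were higher in the first D13 library than in the second. The results are therefore also given from values centred on a smooth curve of each library against transcript length, drawn on genes outside the list. That correction was chosen after the shift was seen. The part of RNA quality or library preparation in this shift was not tested.

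From D0 to D13, most respiratory chain transcripts rose. Of the 79 members, 44 rose at an adjusted p under 0.05 and 0 fell, while 20.6% of all genes and transposon families tested rose and 21.5% fell. The members' median log2 fold change was 0.83, a 1.78-fold higher level, beside −0.01 over all genes. Both D13 libraries stood above both D0 libraries for 70 of the 79, against 33.7% of everything tested, and for 0 members did they stand below. Reads on the members made up 1.08% and 0.985% of all gene reads at D0, 1.46% and 1.4% at D6, then 1.92% and 1.49% at D13. The last pair shows how far the first D13 library lay from the second. Here and in all day comparisons of bulk RNA, more cells of a kind and more RNA per cell cannot be told apart.

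After centring on length, 25 members rose and 1 fell from D0 to D13, while 24.6% of the genes tested rose and 23.7% fell. The members' median was then 0.33, and 23 of the 44 members called before were called again. Cox6c, listed below, was not among these (log2 0.37, adjusted p = 0.073 in the centred limma fit). Single libraries also moved the count. It was 21 without the second D0 library and 20 without the first D13 library, and reached 65 without the second D13 library. The median ranged from 0.57 to 1.14 over the 6 such fits. In every one of the 6, 16 of the 44 kept their call: Atp5s, Cox5a, Cox6b1, Cox6b2, Cox6c, Cox7a1, Cox7b2, Cox8a, Ndufa13, Ndufa6, Ndufb4, Ndufb5, Ndufb8, Sdhc, Sdhd and Uqcr10.

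**Figure D1:**
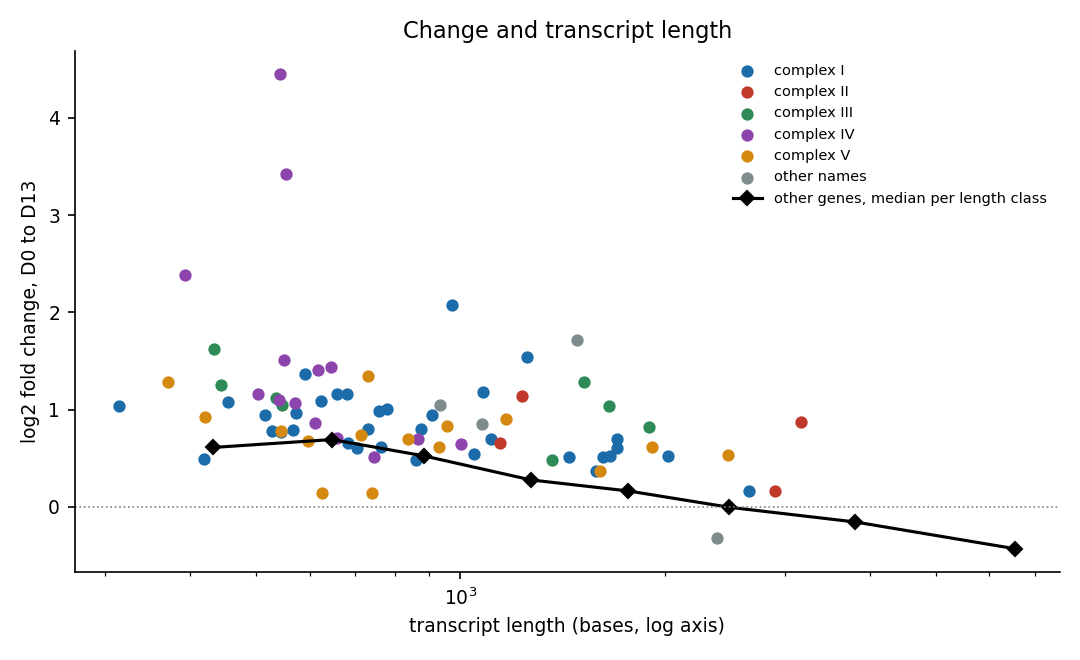
Log2 fold change from D0 to D13 of each of the 79 members (points, coloured by complex) against the length of its transcript in bases (log axis), with the median of the other genes in 8 length classes (black diamonds). The black line falls from above 0 for short transcripts to below 0 for long ones, and most members lie above it.

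Fewer members passed by D6. From D0 to D6, 14 members rose and 0 fell, with 13.7% of everything tested rising and 10.2% falling, so that the share of members called, 17.7%, lay near the background. The median was 0.50, and both D6 libraries stood above both D0 libraries for 67 of the 79, against 34.0%. Centred on length, 17 members rose, against 17.0% of the genes tested, with a median of 0.29. The count was 6 without the second D0 library, 3 without the first D6 library and 5 without the second, each of which leaves 1 library that is assumed to vary like the others. Only Cox6b2, Cox7a1 and Cox7b2 kept their D0 to D6 call in all 6 such fits.

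From D6 to D13 no member was called by limma, 0 higher and 0 lower, where 1.39% of everything tested rose and 2.78% fell. At an unadjusted p under 0.05 there were 9 of the 79 members, a smaller share than the 3156 of all 12626 genes. With voom weights, too, 0 members were called. The median was 0.30, and 0.03 after centring on length, with 0 members called against 3.99% of genes that rose. Both D13 libraries stood above both D6 libraries for 42 of the 79, against 29.4%. Without the first D13 library the median was 0.07, and without the second it was 0.64, with 5 members called. The 3 comparisons share libraries, so their counts do not stand as separate evidence.

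**Figure D2:**
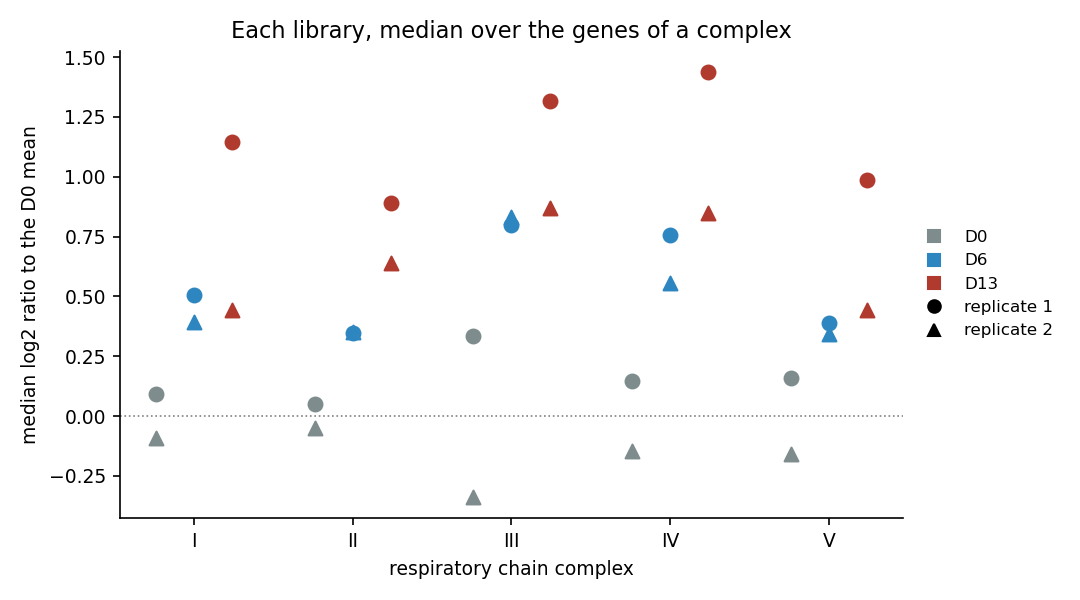
Median log2 ratio to the D0 mean over the genes of each complex, for each library (colour, day; circle, replicate 1; triangle, replicate 2). Both D6 libraries lie close together, while at D13 replicate 1 lies above replicate 2 in all 5 complexes, by the most in complex I (1.14 against 0.44).

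By complex, the D0 to D13 medians were 1.13 for complex IV, 1.09 for complex III, 0.78 for complex I, 0.76 for complex II and 0.70 for complex V. The number of members that rose was 10 of 14, 6 of 8, 18 of 34, 3 of 4 and 5 of 15, against 20.6% of everything tested. After centring on length the medians became 0.35, 0.57, 0.28, 0.55 and 0.15, with 6, 4, 10, 2 and 2 members that rose and 1 member of complex V that fell. Against the 24.6% of genes that rose after centring, complex I at 29.4% lay near the background and complex V at 13.3% below it. Complex V thus had the lowest median of the 5 both before and after centring, whereas the highest passed from complex IV to complex III. Differences between complexes were not tested.

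**Figure D3:**
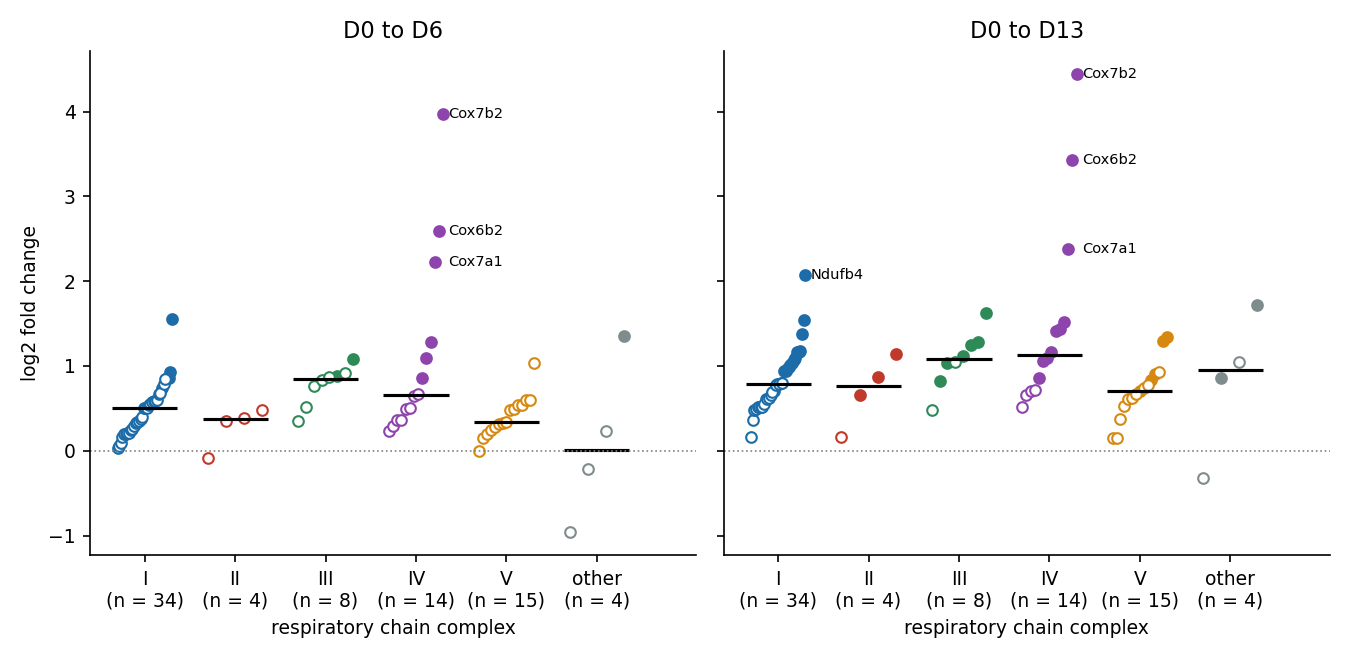
Log2 fold change of every member by complex, from D0 to D6 (left) and from D0 to D13 (right), with filled points for an adjusted p under 0.05, open points for the others and a bar at the median. Cox7b2, Cox6b2 and Cox7a1 of complex IV have the largest rises in both panels, from 2.22 to 4.45. In the right panel Ndufb4 of complex I, at 2.08, lies close below Cox7a1, at 2.38.

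The largest rises from D0 were in the tissue forms of complex IV. Cox7b2 (ENSMUSG00000049387.10, chr5:71442824-71548205 in GRCm38) stood at 0.17 and 0.26 log2 CPM at D0, at 4.53 and 3.84 at D6 and at 4.98 and 4.34 at D13. The days did not overlap between D0 and the later days, and the D0 values rest on 88 and 104 reads. The level rose 15.7-fold by D6 (log2 3.97, SE 0.35, adjusted p = 0.00012) and 21.8-fold by D13 (log2 4.45, SE 0.35, adjusted p = 5.0e-05). It was also the 1 member that passed for a D6 level above the mean of D0 and D13 (log2 1.75, SE 0.31, adjusted p = 0.011), where 5.61% of everything tested passed. That call was lost without the first D6 library, and 4 members had it after centring on length.

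Cox6b2 (ENSMUSG00000051811.14, chr7:4751792-4753094) stood at 2.92 and 2.51 log2 CPM at D0, then at 5.47 and 5.15, then at 6.52 and 5.77, so each day lay above the day before it. It rose 6.04-fold from D0 to D6 (log2 2.59, SE 0.31, adjusted p = 0.00049) and 10.7-fold from D0 to D13 (log2 3.43, SE 0.31, adjusted p = 9.0e-05). Cox7a1 (ENSMUSG00000074218.3, chr7:30184144-30186078) stood at 1.91 and 2.04 log2 CPM at D0, 4.45 and 3.94 at D6, then 4.90 and 3.81 at D13. Its D6 and D13 libraries overlapped, and all 4 lay above D0. The rise was 4.66-fold to D6 (log2 2.22, SE 0.38, adjusted p = 0.0034) and 5.21-fold to D13 (log2 2.38, SE 0.38, adjusted p = 0.0016). Centred on length, the 3 genes rose from D0 to D13 by 3.69, 2.67 and 1.51 in the same order, each past the threshold. The 1 measured muscle marker of 5 summed to 2.67 CPM or less in every library, and Myod1, Tnnt2, Ckm and Myh6 have no row.

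Per transcript length, the tissue forms stayed below their partners on every day. In RPKM, reads scaled to transcript length and library size, Cox7b2 was at 2.14 at D0, 33.5 at D6 and 46.7 at D13, beside 134, 172 and 210 for Cox7b. Its share of the pair's summed level went from 1.57% to 16.3% and 18.2%. Cox6b2 took 6.15%, 15.7% and 21.0% of its pair with Cox6b1, and Cox7a1 took 6.33%, 18.3% and 17.7% of its pair with Cox7a2. Of the partners, 1 of 3 was called. Cox6b1 rose at D6 (log2 1.09, SE 0.29, adjusted p = 0.025) and at D13 (log2 1.41, SE 0.29, adjusted p = 0.0051). Its D6 call was lost without the second D0 library or either D6 library (adjusted p = 0.126, 0.156 and 0.0666). Cox7a2 and, picked after its values were seen, Cox7b passed neither at D6 nor at D13, with D0 to D13 log2 values of 0.71 (SE 0.26, adjusted p = 0.056) and 0.65 (SE 0.24, adjusted p = 0.059), and 0.04 and 0.20 after centring. Without the first D0 library both passed at D13 (1.05, adjusted p = 0.018, and 0.93, adjusted p = 0.026). The tissue forms' changes were not tested against those of their partners.

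**Figure D4:**
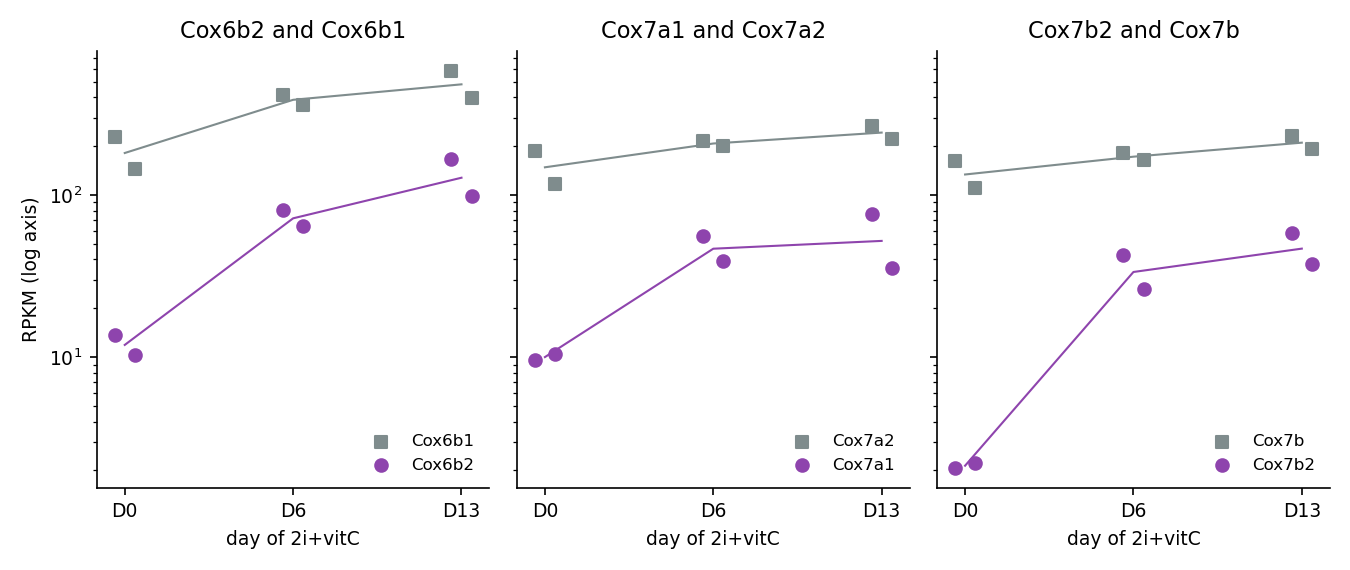
Level per transcript length (RPKM, log axis) of the tissue forms Cox6b2, Cox7a1 and Cox7b2 (circles) and their common partners (squares) in each library, with lines through the day means. The tissue forms rise from D0 to D6 by 4.66-fold to 15.7-fold and remain below their partners.

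The other members of complex IV are common subunits. Cox4i1, the largest of its nuclear-encoded subunits, was the second most abundant member per length and stood at 8.63 and 8.59 log2 CPM at D0, 8.92 and 8.77 at D6, then 9.51 and 8.74 at D13. Its difference from D0 to D13 did not pass (log2 0.51, SE 0.28), was −0.09 after centring on length, and passed without the second D13 library (log2 0.90, adjusted p = 0.0135). Cox8a, a small subunit of the membrane part, stood at 6.82 and 6.51 at D0, then at 7.50 and 7.55, then at 8.48 and 7.88, with no overlap between days. It rose by 1.51 to D13 (SE 0.25, adjusted p = 0.0018), or 0.76 after centring. Its rise to D6 (log2 0.86, adjusted p = 0.038) was lost without either D0 or either D6 library (adjusted p from 0.0601 to 0.205). Cox6a1 rose to D13 (log2 1.06, SE 0.28, adjusted p = 0.015), but not after centring (0.33), nor without the first D0 library (adjusted p = 0.072) or the first D13 library (adjusted p = 0.0545). Cox5a, which sits on the matrix side and was picked here after its values were seen, rose by 1.28 to D6 and 1.44 to D13 (SE 0.28, adjusted p = 0.0040), or 0.76 to D13 after centring, with 6.99 and 7.09 at D0 and 8.06 to 8.89 afterwards. Its D6 call was lost without the first D0 or the first D6 library, with a highest adjusted p of 0.0601. Cox4i2, Cox6a2, Cox8b and Cox8c, further tissue forms, have no row.

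In complex I, 3 of 7 core subunits and 15 of 27 accessory subunits rose from D0 to D13, against 20.6% of everything tested. Their medians were 0.55 and 0.80. After centring on length, 2 and 8 rose, or 28.6% and 29.6%, both near the 24.6% of the genes tested. The medians were then 0.37 and 0.25, so their order was turned. Ndufb4, an accessory subunit of the membrane arm, stood at 1.16 and 0.74 log2 CPM at D0, 2.52 and 2.48 at D6, then 3.33 and 2.71 at D13. It rose 2.94-fold to D6 (log2 1.55, SE 0.35, adjusted p = 0.013) and 4.22-fold to D13 (log2 2.08, SE 0.35, adjusted p = 0.0021). The D6 call was lost without either D6 library (adjusted p = 0.0991 and 0.0845). With 145 to 721 reads it was among the 3 least abundant members per length. GENCODE lists a pseudogene, Ndufb4c, so that some reads could fit either copy and the level is uncertain. By name, the same holds for 8 members, with 11 such pseudogenes: Atp5c1, Atp5k, Atp5l, Cox6c, Ndufa11, Ndufb4, Ndufs6 and Uqcrh. Only pseudogenes that carry a member's name with a suffix were counted, so other members may have copies under other names.

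Further genes of complex I were picked after their values were seen, to show its range. Ndufa13, an accessory subunit also known as GRIM-19, stood at 6.03 and 5.87 log2 CPM at D0, 6.87 and 6.72 at D6, then 7.92 and 7.07 at D13, each day above the last. It rose by 1.55 to D13 (SE 0.29, adjusted p = 0.0030) and by 1.23 after centring. Ndufa6 rose by 1.37 (SE 0.26, adjusted p = 0.0036) and by 0.65 after centring. At the other end, Ndufs1, the large iron-sulfur core subunit, stood at 7.62 and 7.33 at D0 and at 7.64 and 7.63 at D13, and its difference of 0.17 (SE 0.20, adjusted p = 0.54) did not pass.

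Complex II has only nuclear-encoded subunits, and they did not move alike. Sdha, the flavoprotein that binds succinate, stood at 8.18 and 8.29 log2 CPM at D0, 8.20 and 8.11 at D6, then 8.51 and 8.29 at D13, and its log2 difference of 0.16 from D0 to D13 (SE 0.21, adjusted p = 0.55) did not pass. Sdhb, the iron-sulfur subunit, went from 6.48 and 6.40 to 6.92 and 6.74 and to 7.26 and 6.94, with no overlap between days. It rose by 0.66 to D13 (SE 0.21, adjusted p = 0.036), a call that was lost without any library but the second D13 library (adjusted p from 0.0719 to 0.105) and after centring (0.28, adjusted p = 0.165). Sdhc and Sdhd are the membrane anchors that bind ubiquinone. Sdhc stood at 6.64 and 6.51 at D0, then at 6.87 and 6.97, then at 7.54 and 7.35, a rise of 0.87 (SE 0.20, adjusted p = 0.0087). Sdhd stood at 7.09 and 6.41, then 7.15 and 7.30, then 8.001 and 7.78, a rise of 1.14 (SE 0.26, adjusted p = 0.0082). After centring the anchors rose by 0.96 and 0.81. None of the 4 passed at D6. The difference between subunits was not tested.

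Complex III was named by no rule of its own, and its examples were picked after their values were seen. Uqcr10, a small accessory subunit, stood at 6.83 and 6.19 log2 CPM at D0, 7.58 and 7.61 at D6, then 8.47 and 7.80 at D13, with each day above the last. It rose by 1.08 to D6 (SE 0.29, adjusted p = 0.028) and by 1.63 to D13 (SE 0.29, adjusted p = 0.0027), or 0.79 and 0.78 after centring. The D6 call was lost without the second D0 or either D6 library, with a highest adjusted p of 0.142. Uqcrc1, a large core protein, rose by 1.03 to D13 (SE 0.25, adjusted p = 0.010) and by 0.88 after centring, and missed the threshold without the second D0 library (adjusted p = 0.051). Uqcrh, the hinge protein, was at 7.39 and 5.59 at D0, so the replicates of that day lay far apart, and its difference of 1.05 (SE 0.49, adjusted p = 0.12) did not pass. Its log2 value was 0.15 without the second D0 library and 1.95 without the first.

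Complex V held the most abundant members. Per length, Atp5b, the catalytic beta subunit, ranked first at 1001, 1259 and 1537 RPKM at D0, D6 and D13, and Atp5a1, the alpha subunit, came next after Cox4i1 at 442, 536 and 639 RPKM. Atp5b stood at 10.89 and 10.92 log2 CPM at D0, 11.24 and 11.23 at D6, then 11.70 and 11.35 at D13, with no overlap between days. Its log2 difference of 0.62 (SE 0.26, adjusted p = 0.090) missed the threshold, and passed without the second D13 library (0.79, adjusted p = 0.044). Atp5a1 differed by 0.53 (SE 0.23, adjusted p = 0.099) and passed after centring (0.52, adjusted p = 0.046). Of the F1 subunits, 1 of 5 rose to D13, and of the membrane and stalk subunits 3 of 7, against 20.6% of everything tested. After centring, 2 F1 subunits rose, while 0 membrane and stalk subunits rose and 1 fell. Of the genes tested, 24.6% then rose and 23.7% fell. Atp5h, a stalk subunit picked after its values were seen, stood at 7.67 and 7.48 at D0 and 8.01 and 7.44 at D13, with overlap, and was the 1 member that fell after centring (log2 −0.55, adjusted p = 0.016).

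The c ring, which turns as protons pass, is encoded by 3 genes for the same mature protein. Atp5g1 and Atp5g3 were the abundant copies. Atp5g1 stood at 7.62 and 6.78 log2 CPM at D0, 7.73 and 7.87 at D6, then 8.17 and 7.58 at D13, and its D0 to D13 difference of 0.67 (SE 0.31, adjusted p = 0.12) did not pass, except without the first D0 library (1.09, adjusted p = 0.031). Atp5g3 went from 8.25 and 7.57 to 8.39 and 8.51 and to 8.94 and 8.35. Its difference of 0.74 (SE 0.29, adjusted p = 0.073) passed without the first D0 library (1.08, adjusted p = 0.033) and without the second D13 library (1.03, adjusted p = 0.036). Atp5g2 was low at D0 and D6, from 1.38 to 1.66, and stood at 3.01 and 2.52 at D13. It rose by 1.35 from D0 to D13 (SE 0.34, adjusted p = 0.013), a call lost without the first D13 library (1.10, adjusted p = 0.0687) and after centring (0.73, adjusted p = 0.0664). At D13 it made up 1.63% of its level summed with Atp5g3.

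Of the 4 genes that carry a member name without being a standard subunit, 2 rose to D13, with log2 differences from −0.32 to 1.71. Atp5s, a coupling factor of ATP synthase, stood at 2.38 and 3.04 log2 CPM at D0, 4.33 and 3.79 at D6, then 4.69 and 4.15 at D13. It rose by 1.36 to D6 (SE 0.34, adjusted p = 0.021) and 1.71 to D13 (SE 0.34, adjusted p = 0.0045), or 1.51 after centring. The D6 call was lost without the first D0 library (1.03, adjusted p = 0.0994) or the first D6 library (1.09, adjusted p = 0.194). Cox7a2l, a factor that joins complexes III and IV into supercomplexes, rose by 0.86 to D13 (SE 0.26, adjusted p = 0.029), from 6.73 and 6.96 to 8.03 and 7.37. That call was lost after centring (0.44) and without any library but the second D13 library (adjusted p from 0.0507 to 0.118). Ndufa4l2, a paralog of Ndufa4 and the least abundant member per length, was at −0.46 and 1.36 at D0, −0.96 and −0.06 at D6, then 1.62 and 1.39 at D13. Its difference of 1.05 from D0 to D13 (SE 0.63, adjusted p = 0.21) did not pass and rests on 40 to 223 reads. It passed without the second D0 library (1.96, adjusted p = 0.029). Its D6 to D13 difference was the largest of any member (log2 2.02, SE 0.63, adjusted p = 0.0999) and missed the threshold, but passed without the first or the second D0 library (adjusted p = 0.0446 and 0.0477). Its D0 to D6 difference of −0.96 (adjusted p = 0.32) passed without the first D0 library (−1.87, adjusted p = 0.0482). Atp5sl, an assembly factor picked after its values were seen, was the 1 member whose mean was below its D0 mean at D13. It stood at 5.36 and 4.86 at D0, 4.88 and 4.91 at D6, then 4.92 and 4.67 at D13, and its difference of −0.32 (SE 0.25, adjusted p = 0.33) did not pass.

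Related lists, which hold the other genes of respiration, are set against the 20.6% of everything tested that rose from D0 to D13 and the 21.5% that fell. Of 10 measured further subunits and electron carriers, 3 rose and 0 fell, with a median of 0.66. Etfb, which feeds electrons from fatty acid oxidation to ubiquinone, rose by 1.37 (SE 0.34, adjusted p = 0.012), though not without the first D0 or the first D13 library (adjusted p = 0.0783 and 0.0612). Ndufab1, the acyl carrier protein within complex I, rose by 0.83 (SE 0.24, adjusted p = 0.023), though not without the second D0, either D6 or the first D13 library (adjusted p from 0.0525 to 0.0988). Cyc1, the cytochrome of complex III, differed by 0.69 (SE 0.25, adjusted p = 0.057) and passed without the second D13 library (0.97, adjusted p = 0.016) and after centring on length (0.49, adjusted p = 0.048).

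Of 14 assembly factors of complex I, 3 rose and 0 fell, with a median of 0.41, so that the 21.4% that rose lay at the background of 20.6%. Ndufaf5 stood at 3.84 and 3.47 log2 CPM at D0 and 5.51 and 4.76 at D13, a rise of 1.48 (SE 0.30, adjusted p = 0.0050). Ndufaf6 rose by 1.26 (SE 0.27, adjusted p = 0.0063). Of 28 assembly factors of complexes II to V, 6 rose and 4 fell, with a median of 0.25, and their 21.4% that rose also lay at the background. Cox14, an assembly factor of complex IV, stood at 3.63 and 3.75 at D0 and 5.94 and 5.11 at D13, a rise of 1.83 (SE 0.30, adjusted p = 0.0018). Sdhaf1, needed for the iron-sulfur clusters of Sdhb, rose by 1.41 (SE 0.29, adjusted p = 0.0050). The D0 and D13 libraries of these genes did not overlap.

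Of 21 measured regulators, 1 rose and 8 fell from D0 to D13, with a median of −0.17, beside −0.01 over all genes. Their transcripts are long, with a median of 3656 bases, and after centring on length 4 rose and 8 fell, or 19.0% and 38.1%, with a median of −0.12, where 24.6% of the genes tested rose and 23.7% fell. Ppargc1b, a coactivator of respiratory genes, was the 1 that rose before centring, from 1.61 and 1.78 log2 CPM to 2.75 and 3.11 (log2 1.23, SE 0.34, adjusted p = 0.019). That call was lost without the first D0 or the second D13 library (adjusted p = 0.0601 and 0.0752). Tfam, which packages and transcribes mitochondrial DNA, fell by 0.75 (SE 0.20, adjusted p = 0.015), though it missed the threshold without the second D0 or either D6 library (adjusted p from 0.0501 to 0.0618). Lin28a, an RNA-binding protein known to act on mRNAs of oxidative phosphorylation, fell by 4.91 (SE 0.35, adjusted p = 3.1e-05), from 9.35 and 8.82 to 4.26 and 4.09. Nrf1 differed by −0.28 (SE 0.20, adjusted p = 0.29) and Esrra by 0.62 (SE 0.28, adjusted p = 0.11). Esrrb, a factor of naive pluripotency, differed by 1.02 (SE 0.41, adjusted p = 0.077) with 7.29 and 8.77 at D0, and passed without the second D0 library (1.76, adjusted p = 0.0028) and after centring (1.22, adjusted p = 0.030). Ucp2, an uncoupling protein of the inner membrane, rose by 1.20 to D6 (SE 0.24, adjusted p = 0.0064) and differed by 0.50 from D0 to D13 (adjusted p = 0.12). The first call missed the threshold without either D6 library (adjusted p = 0.0507 and 0.0531), and the second comparison passed it without the second D0 library (0.76, adjusted p = 0.040) and after centring (0.67, adjusted p = 0.029). Ppargc1a has no row.

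Of 27 genes of pyruvate dehydrogenase and the TCA cycle, which supply the chain with electrons, 12 rose and 1 fell, with a median of 0.53, and 14 rose and 2 fell after centring on length. These genes are longer, with a median transcript of 2544 bases. Pdk1, the kinase that switches pyruvate dehydrogenase off, stood at 7.69 and 8.18 log2 CPM at D0, 5.06 and 5.48 at D6, then 4.63 and 4.65 at D13, and fell by 3.30 (SE 0.25, adjusted p = 4.3e-05). Mpc1, a carrier of pyruvate into mitochondria, rose by 2.80 (SE 0.29, adjusted p = 0.00016), from 2.86 and 2.23 to 5.50 and 5.18. Of 77 mitochondrial ribosomal proteins, 7 rose and 4 fell, with a median of 0.21. After centring, 6 rose and 18 fell, with a median of −0.08. These were 7.79% and 23.4%, where 24.6% of the genes tested rose and 23.7% fell, so the falls lay at the background. Mrpl36 and Mrps16 rose by 1.13 (SE 0.32, adjusted p = 0.022) and 1.11 (SE 0.27, adjusted p = 0.012), and each call was lost without the second D0 library (adjusted p = 0.124 and 0.0654) or the first D13 library (adjusted p = 0.128 and 0.053).

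**Figure D5:**
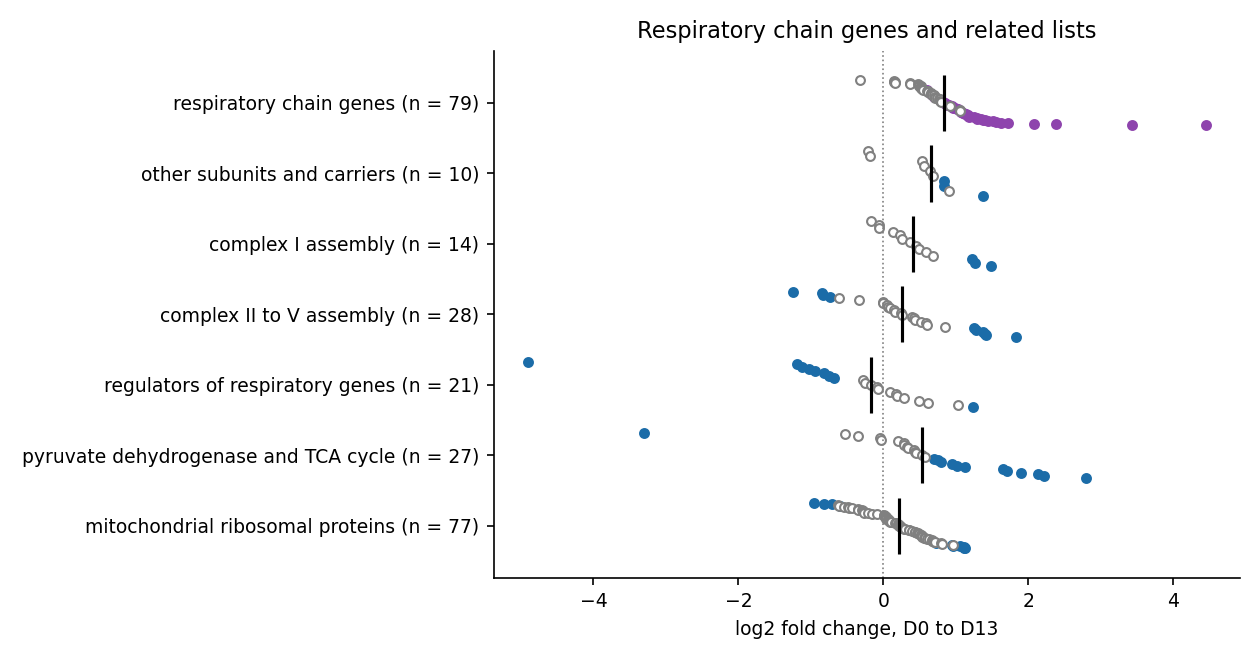
Log2 fold change from D0 to D13 of the 79 respiratory chain genes and of the genes in 6 related lists (filled, adjusted p under 0.05; open, others; bar, median). The members' median is 0.83, and the regulators' median of −0.17 is the only one below 0.

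By the study's own rule, which also asks for a change of more than 4-fold, 3 members rose from D0 to D6 (5.95% of everything tested rose so), 0 from D6 to D13 (0.379%) and 4 from D0 to D13 (7.39%). The 3 were Cox7b2, Cox6b2 and Cox7a1, and Ndufb4 joined them at D13. Without the first D13 library only 2 passed to D13, and without the first D6 library 2 passed to D6. After centring on length 2 passed to D13, Cox7b2 and Cox6b2.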

How the data were processed

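Expression was measured in 6 libraries of J1 cells, 2 for each of D0, D6 and D13, grouped by their titles. The authors aligned the paired-end reads to mm10 (TopHat2 2.0.6), counted those on each RefSeq gene (HTSeq 0.6.1), added transposon families, applied TMM and voom, and deposited log2 CPM values, 1 value per gene and library. Transposon families entered the tests only as part of the 12928 features.

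The members and lists were chosen with earlier results of these data known. Differences were tested with limma 3.58.1 on the deposited log2 values (a mean per day over all 6 libraries, mean-variance trend, Benjamini-Hochberg over 12928 features, R 4.3.3). The pairs of 2 against 2 libraries allow an exact permutation p of 0.333 at best, so none is given. The fit was tested on simulated reads whose spread was fixed in advance and may differ from that of these libraries. It recovered 95% of log2 changes of 1 from D0 to D13 without a length shift. With a length shift it recovered 77.6% before centring on length and 94.1% after. Recovery among short genes that mostly rise, as the members do, was not tested. Transcript lengths (GENCODE vM21, GRCm38; shortest principal transcript paired with RefSeq) were found for 11479 genes, and centring used a lowess curve with a span of 0.3. Levels per length depend on that transcript. Named genes were the 5 largest rises and falls per comparison that passed and moved alike in both same-numbered pairs, fixed isoform sets and complex II, the 3 highest and 3 lowest levels per length, and of each related list the 2 largest changes with a few fixed regulators. The text says where others were added. Alternatives were a filter of 10 reads in 2 libraries, fits on only the days compared, a replicate block, leaving out each library, no trend, voom weights and median centring, with centring on length and on length and GC added after the data were seen.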

Additional observations from a re-analysis of the deposited data

How the results depend on the processing

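Each library held at least 73230745 gene reads, and 7 members had under 1000 reads in some library. The filter of 10 reads removed nothing, and with it, median centring and voom weights each of 117 differences of named genes kept its direction and its side of the threshold. Without a trend, 6 members passed from D0 to D6. Fitting only the days compared gave 1 member from D6 to D13, past 4-fold (1). A replicate block gave 1 and 1 there, 57 from D0 to D13, 21 from D0 to D6, and 3 members with a D6 departure. Replicate differences of all genes correlated at 0.33 for D6 with D13, at 0.14 for D0 with D13 and at −0.13 for D0 with D6. The length shift also separated replicates, so these values do not settle whether the replicate numbers pair the libraries.

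Leaving out 1 library gave 3 to 21, 0 to 5 and 20 to 65 members for D0 to D6, D6 to D13 and D0 to D13, 2 to 3, 0 to 1 and 2 to 4 past 4-fold, medians of 0.33 to 0.66, 0.07 to 0.64 and 0.57 to 1.14, and 0 to 4 members with a D6 departure. Centring on length gave medians of 0.29 from D0 to D6 and 0.33 from D0 to D13, with 26 members called there, 2 past 4-fold and 4 with a D6 departure. With GC as well these were 0.28, 0.30, 29, 2 and 4. The cause was not tested.

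Of the named differences that passed no threshold, some changed sign. Centring on length turned Atp5g2 from D0 to D6 (−0.076, and −0.078 with GC), and from D0 to D13 Cox4i1 (−0.094, −0.153) and Atp5g1 (−0.042, −0.113). From D6 to D13 it turned Cox7b2 (−0.009), Cox7a1 (−0.412, −0.447), Cox4i1 (−0.102, −0.170), Cox6a1 (−0.047, −0.116), Cox6b1 (−0.127, −0.124), Cox7a2 (−0.199, −0.203), Atp5g1 (−0.377, −0.442), Atp5g3 (−0.198, −0.186) and Etfb (−0.034, −0.102), and with GC Sdhb (−0.000). Leaving out 1 library spread Esrra from −0.016 (without the first D0 library) to 0.353 by D6. Between D6 and D13 it spread Cox7a1 from −0.387 to 0.707, Cox4i1 from −0.107 to 0.666, Atp5g1 from −0.215 to 0.372, Atp5g3 from −0.097 to 0.492, Etfb from −0.198 to 0.769 and Ndufaf5 from −0.057 to 0.693, each lowest without the first D13 library, and Ppargc1b from −0.617 to 0.047, highest without the second D6 library.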
